A study of Mus musculus with 4 samples.

Results

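The 41 genes described here are immediate early genes, taken from a fixed list of symbols, and all of them were found among the 28625 gene symbols of the matrices. They were read by droplet single-cell RNA sequencing of activated CD4 T cells from the mediastinal lymph node, which drains the lung, on day 7 after mice were given 10 µg of Alternaria alternata (a mould) extract with 25 µg of NP-OVA, a hapten on ovalbumin, through the nose. The sorted cells of both populations had been restimulated for 30 minutes with PMA, an activator of protein kinase C, and ionomycin, a calcium ionophore. The Tfh sort (T follicular helper cells, which help B cells) came from 3 C57BL/6 mice and was gated on TCRβ, CD4, CD44, CXCR5 and PD-1. The other population, called the reporter sort below, came from 3 mice of the strain labelled C57BL/6 4GET IL-4 Reporter and was gated on TCRβ, CD4, CD44 and the GFP that reports Il4. Each mouse had its own hashtag antibody, each sort was 1 lane, and the labels give no age. All cells were stimulated and no unstimulated cells were analysed here, so no level below can be called induced. Strain, chemistry (10x version 2 for the Tfh sort and version 3 for the reporter sort) and sequencing run differ between the sorts, so a difference between sorts cannot be told apart from these and was not tested.

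Immediate early genes are transcribed by factors already present in the resting cell, without new protein synthesis. PMA and ionomycin bypass the T-cell receptor and switch on protein kinase C, the RAS and MAP kinase chain and the calcium-driven phosphatase calcineurin. These act on pre-formed factors such as SRF with its ELK partners, CREB and NFAT at the promoters of the early genes. The products fall into roles: AP-1 transcription factors (Fos, Jun and their relatives, with Atf3 and Maff), zinc finger factors of the EGR family, orphan nuclear receptors of the NR4A family, phosphatases that act on MAP kinases (the DUSP genes), proteins that speed the decay of mRNA (the Zfp36 and Btg genes), Krüppel-like factors, and a mixed group that includes the activation marker Cd69 and the G-protein regulators Rgs1 and Rgs2.

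Promoters are shown first for 5 members whose levels differ between the cell groups below, because the core of the CREB binding site lies in each of them. RefSeq (GRCm38.p6) gave a promoter for 32 of the 41 genes. The window is the 250 bases before the RefSeq start, 5′ to 3′ on the gene's own strand, and capitals mark each TGACG or its reverse complement CGTCA. The windows are chr15:101266596-101266845 (+) for Nr4a1, chr2:57124004-57124253 (-) for Nr4a2, chr4:48045055-48045304 (+) for Nr4a3, chr12:85473640-85473889 (+) for Fos and chr17:26508473-26508722 (-) for Dusp1. For Nr4a1, Nr4a3 and Dusp1 the GENCODE M21 gene span starts elsewhere, so part or all of the window lies inside it.
Nr4a1: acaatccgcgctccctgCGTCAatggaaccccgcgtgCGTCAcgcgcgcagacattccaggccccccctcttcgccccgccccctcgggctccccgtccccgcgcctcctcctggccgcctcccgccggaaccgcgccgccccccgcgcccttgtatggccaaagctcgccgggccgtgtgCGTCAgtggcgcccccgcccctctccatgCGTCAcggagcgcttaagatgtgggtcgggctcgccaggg
Nr4a2: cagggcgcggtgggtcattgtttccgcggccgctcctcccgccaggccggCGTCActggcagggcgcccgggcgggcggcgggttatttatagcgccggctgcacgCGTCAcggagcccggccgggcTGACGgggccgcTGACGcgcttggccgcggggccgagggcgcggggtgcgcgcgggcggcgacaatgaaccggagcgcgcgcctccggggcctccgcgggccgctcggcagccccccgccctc
Nr4a3: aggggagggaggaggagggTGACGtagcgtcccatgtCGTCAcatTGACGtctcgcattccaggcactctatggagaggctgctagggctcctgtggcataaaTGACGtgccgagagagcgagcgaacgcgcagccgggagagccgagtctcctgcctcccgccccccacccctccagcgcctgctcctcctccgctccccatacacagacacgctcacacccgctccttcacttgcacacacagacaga
Fos: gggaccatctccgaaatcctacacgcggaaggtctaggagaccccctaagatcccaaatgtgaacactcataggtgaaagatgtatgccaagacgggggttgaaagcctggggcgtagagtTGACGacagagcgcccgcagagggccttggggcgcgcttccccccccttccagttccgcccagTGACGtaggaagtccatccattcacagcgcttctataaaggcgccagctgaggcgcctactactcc
Dusp1: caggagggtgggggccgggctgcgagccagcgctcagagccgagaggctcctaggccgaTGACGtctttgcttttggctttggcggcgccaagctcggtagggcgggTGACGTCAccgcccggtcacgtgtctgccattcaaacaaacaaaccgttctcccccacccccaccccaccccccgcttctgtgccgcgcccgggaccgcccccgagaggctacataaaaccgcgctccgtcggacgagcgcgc
Nr4a1, Nr4a2 and Nr4a3 each held 4 of these cores, Dusp1 held 3 and Fos held 2. Of the members with a promoter, 18 (56.25%) held the core on either strand, against 19.8% of all 27025 genes with a promoter of this length. The full element TGACGTCA, which contains the core, was in 4 members (12.5%: Dusp1, Btg2, Ppp1r15a and Maff) and in 1.77% of all genes. Dusp5, a nuclear phosphatase of ERK, is shown for another element, the SRF-binding CArG box, at chr19:53528895-53529144 (+), with 2 matches in capitals, and its GENCODE span also starts elsewhere.
Dusp5: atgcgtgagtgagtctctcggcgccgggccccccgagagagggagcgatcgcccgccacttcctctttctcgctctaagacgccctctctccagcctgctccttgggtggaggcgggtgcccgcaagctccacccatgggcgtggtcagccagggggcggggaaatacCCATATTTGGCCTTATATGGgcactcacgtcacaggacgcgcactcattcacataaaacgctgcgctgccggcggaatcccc
A CArG box on either strand was in 3 members (9.38%: Egr2, Dusp5 and Zfp36) and in 1.62% of all genes. The EGR site (GCGGGGGCG or GCGTGGGCG, either strand) was in 7 members (21.9%) and 3.47% of all genes. The AP-1 site (TGACTCA or TGAGTCA) was in 1 member, Csrnp1 (3.12%), and 5.16% of all genes. These are matches of letters, and no binding was measured. Bases further upstream were not searched, so a gene without a match here may hold one there. The shares over all genes were not matched to the members for base composition, and its part was not tested.

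The filter on cells asked for 500 or more genes and no more than 10% of UMIs (unique molecular identifiers, each a counted RNA molecule) from mitochondrial genes. It kept 3916 of 3956 barcodes of the Tfh sort and 4585 of 7646 of the reporter sort. Hashtags placed 3780 and 3989 of them in a mouse, and 1 barcode occurred in both sorts. The median CD4 T cell had 2757 UMIs among Tfh-sort cells and 6170.5 among reporter-sort cells. Every cell was therefore thinned to 2000 UMIs, which left out 602 and 317 shallower CD4 T cells and kept 926, 993 and 558 in Tfh-sort mice 1, 2 and 3 and 923, 776 and 1034 in reporter-sort mice. Levels are in CPM after thinning, the usual scaling of a gene's UMIs by the total, so 1 UMI in a cell is 500 CPM, and values for 3 mice are given in the order of mouse 1, 2 and 3. The sorts were not pure: 363 and 246 B cells (2 or more Cd79a UMIs) remained at this depth, and 606 reporter-sort cells with 3 or more myeloid UMIs were set aside. RNA from other cells was present in droplets: a Cd3e UMI was in 15.8% to 23.1% of Tfh-sort and 8.57% to 10.5% of reporter-sort B cells, against 75.1% to 78.5% and 51.4% to 56.5% of CD4 T cells. A Cd4 UMI was in 40.3% to 41.3% and 34.0% to 39.2% of the cells called CD4 T cells, which were those with T-cell genes and fewer than 2 UMIs of Cd8a and Cd8b1, and a Cxcr5 UMI in 17.7% to 22.3% of those of the Tfh sort. Mast cell and basophil genes (5) were at 0 in every group compared.

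The 41 genes took up 3.35%, 3.40% and 3.11% of all UMIs of CD4 T cells in the 3 Tfh-sort mice and 2.85%, 2.68% and 2.53% in the reporter-sort mice. Fos, the AP-1 subunit that pairs with Jun proteins, was the highest member in each sort, with 6379, 6586 and 5915 CPM in the Tfh sort and 4949.6, 4298 and 4287 CPM in the reporter sort. It was seen in 98.1% and 93.2% of CD4 T cells. Junb followed with 3440.4 ± 271 CPM (mean ± SD, n = 3) and 2439.8 ± 215 CPM. Jund stood at 2566 ± 162 and 1759 ± 79.8 CPM, while Jun itself was low at 261 ± 52.6 and 566 ± 67.0 CPM. Fosb reached 857 ± 71.9 and 1058 ± 123 CPM, and Fosl1 only 23.6 ± 5.73 and 11.7 ± 1.14. The libraries count transcript ends, so these are levels per molecule and need no correction for length.

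The means of the EGR family stood in the order Egr1, Egr2, Egr4 and Egr3 in both sorts. Among Tfh-sort cells Egr1 (1015, 1003 and 932 CPM) and Egr2 (1042, 995 and 903 CPM) overlapped over the mice, and Egr4 lay below both at 753, 646 and 692 CPM. Egr1 led the family in the reporter sort with 1919, 1777 and 1652 CPM, Egr2 stood at 613, 587 and 538 and Egr4 at 290.4, 279 and 268 CPM. Egr3 was scarce in both, at 14.6 ± 0.597 and 23.6 ± 4.12 CPM. In the NR4A family Nr4a1, whose product is also called NUR77, had 2204, 2276 and 2213 CPM in the Tfh sort and 852, 847 and 796 CPM in the reporter sort. Nr4a2 (974 ± 47.9 and 583 ± 23.4 CPM) and Nr4a3 (374 ± 17.4 and 343 ± 14.7 CPM) followed in the same order in each sort.

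Among the mRNA decay genes Btg1 led in the Tfh sort with 2335 ± 186 CPM and Btg2 in the reporter sort with 1445 ± 66.4 CPM. Zfp36l1, which binds AU-rich mRNA, was at 1193 ± 64.5 and 968 ± 29.1 CPM. Of the phosphatases, Dusp1 (864, 959 and 838 CPM in the Tfh sort, 594, 472 and 513 in the reporter sort) and Dusp2 (499 ± 34.7 and 489 ± 51.0) were the highest, and Dusp4 stayed at 44.4 ± 2.21 and 15.3 ± 3.20 CPM. Cd69, which holds activated lymphocytes in the node, was at 1727, 1909.9 and 1779 CPM in the Tfh sort, while the reporter sort had 1722, 1745 and 1566 CPM. Maff, a small partner of AP-1 factors, was at 398 ± 26.5 and 81.7 ± 7.91 CPM, and Mcl1, a survival factor, at 84.7 ± 5.61 and 374 ± 21.4 CPM. The remaining AP-1 members were Fosl2 (189 ± 16.4 and 149.6 ± 10.1 CPM) and Atf3 (174 ± 11.7 and 92.5 ± 31.5). Of the Krüppel-like factors Klf6 stood at 185 ± 19.5 and 183 ± 37.3 CPM and Klf4 at 155 ± 11.8 and 69.0 ± 13.5. Gadd45b, a stress sensor, was at 775 ± 51.1 and 1295 ± 126 CPM and Ier2 at 755 ± 49.4 and 972 ± 44.3. The other members lay at means of 25.3 (Gadd45a) to 493 (Ppp1r15a) CPM in the Tfh sort and 11.1 (Gadd45a) to 835 (Zfp36) in the reporter sort. Ier3 was among the least detected members, in 2.53% and 5.81% of CD4 T cells, with 15.1, 23.7 and 8.96 CPM in the Tfh sort. The reporter-sort levels were 50.9, 65.1 and 21.3 CPM, where mouse 3 was the low one. The genes the results turn on lie at Fos (chr12:85473890-85477273, +), Nr4a2 (chr2:57106830-57124003, -), Egr4 (chr6:85511121-85513589, -), Ier3 (chr17:35821684-35822923, +), Rgs1 (chr1:144242296-144249242, -) and Cd69 (chr6:129267325-129275436, -) in GENCODE M21 on GRCm38.

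**Figure D1:**
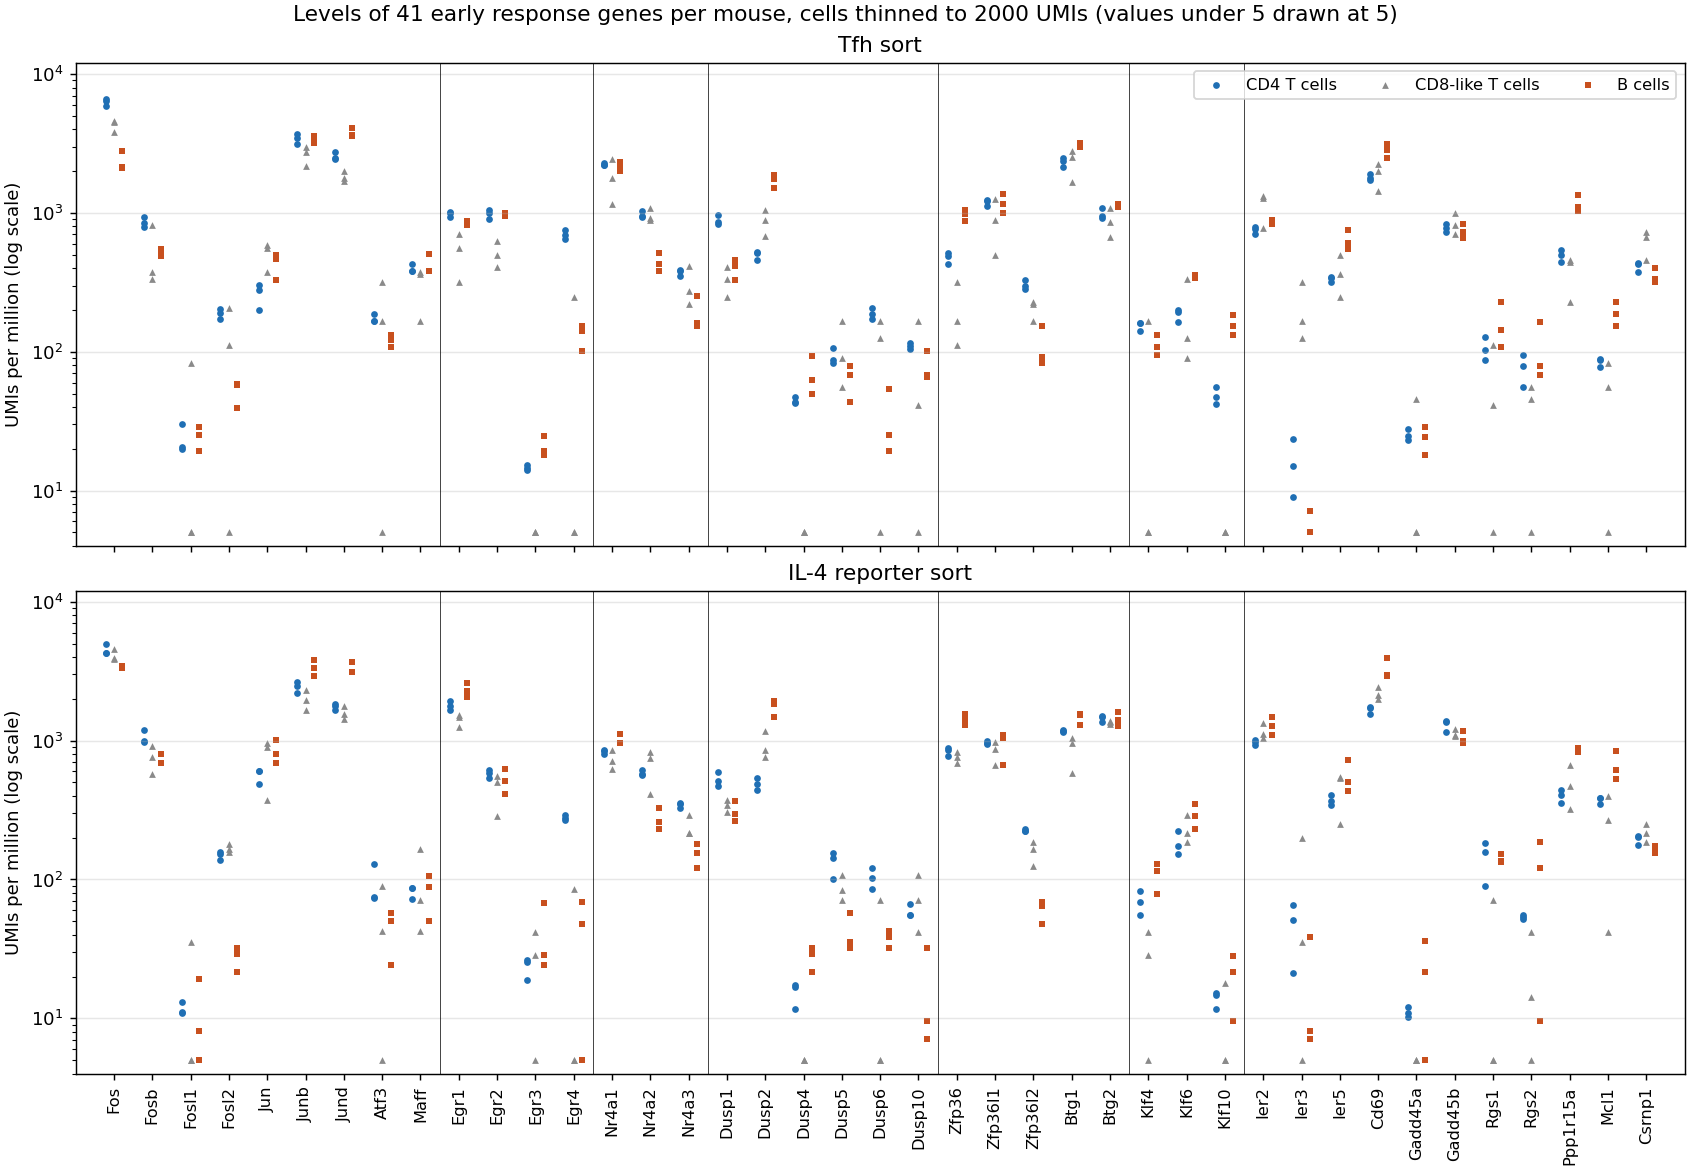
Levels of the 41 genes in CPM (log axis, values under 5 drawn at 5) in each of the 3 mice for CD4 T cells, CD8-like T cells and B cells of each sort, grouped by role. Fos is the highest member in CD4 T cells of both sorts, and Fosl1 and Egr3 lie near the bottom.

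Nearly every CD4 T cell of the Tfh sort held transcripts of these genes. The median cell held 67, 67 and 63 UMIs of the 41 genes in the 3 mice, out of 2000, from a median of 20 different members, and 3.56%, 3.22% and 3.58% of cells held fewer than 20. In the reporter sort the medians were 58, 54 and 51 UMIs, and 9.43%, 12.4% and 17.2% of cells held fewer than 20. Each reporter-sort mouse had a larger low tail than any Tfh-sort mouse. Cells with no UMI of Fos, Egr1 and Nr4a1 together made up 0.101% to 0.216% of Tfh-sort and 3.03% to 5.51% of reporter-sort CD4 T cells.

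**Figure D2:**
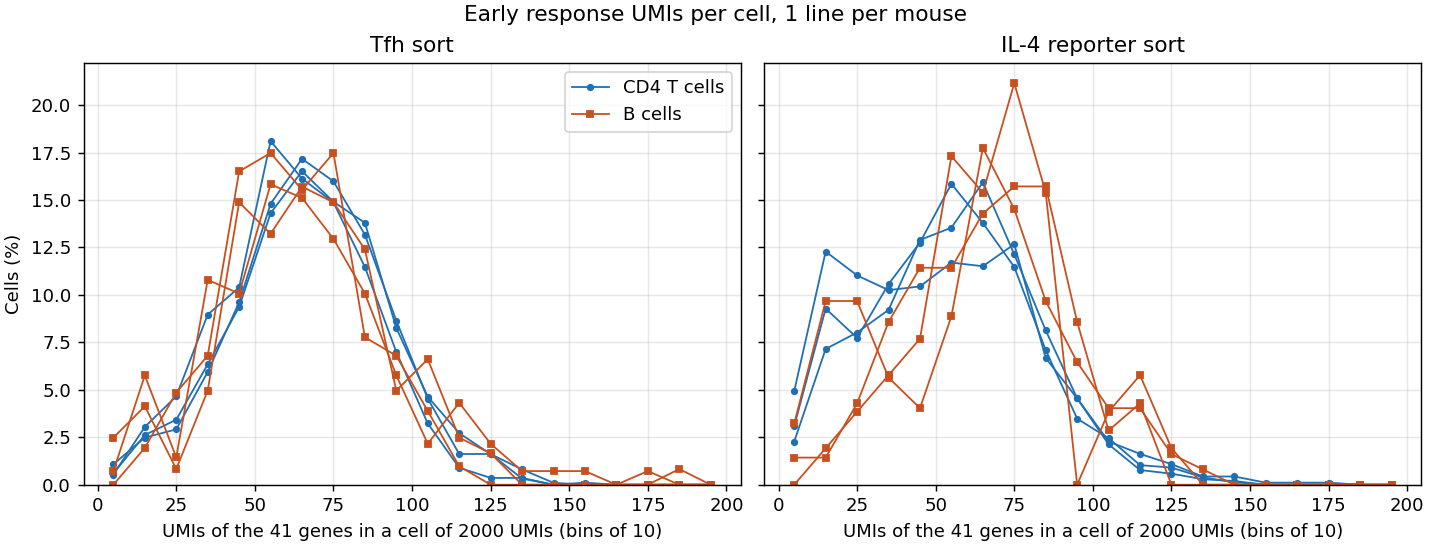
Share of cells (%) by the number of UMIs of the 41 genes in a cell of 2000 UMIs, in bins of 10, with 1 line per mouse for CD4 T cells and for B cells of each sort. Fewer than 20 UMIs were held by 3.22% to 3.58% of Tfh-sort and 9.43% to 17.2% of reporter-sort CD4 T cells.

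The share of UMIs that these genes took was lowest in the deepest cells, although all cells were thinned to the same number. With the CD4 T cells of each mouse ranked by full UMIs and cut into 4 equal bins, the summed level in the Tfh sort went from 40043 CPM in the shallowest bin to 25821 in the deepest in mouse 1, from 40215 to 26514 in mouse 2 and from 35507 to 24196 in mouse 3. The deepest bin was again the lowest in each reporter-sort mouse (22667, 24028 and 21573 CPM), but there the bin next to the shallowest was the higher of the pair in each mouse, at 32091 against 30773, 28817 against 27829.9 and 27509.7 against 23929 CPM. Mean mitochondrial shares also fell from the shallowest bin to the deepest, from 3.85% to 2.83% in mouse 1 of the Tfh sort and from 6.21% to 5.20% in mouse 1 of the reporter sort. Splits of CD4 T cells are therefore also given with cells matched for full depth within each mouse. B cells and CD8-like cells were not matched, and their median depths are given beside their results.

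**Figure D3:**
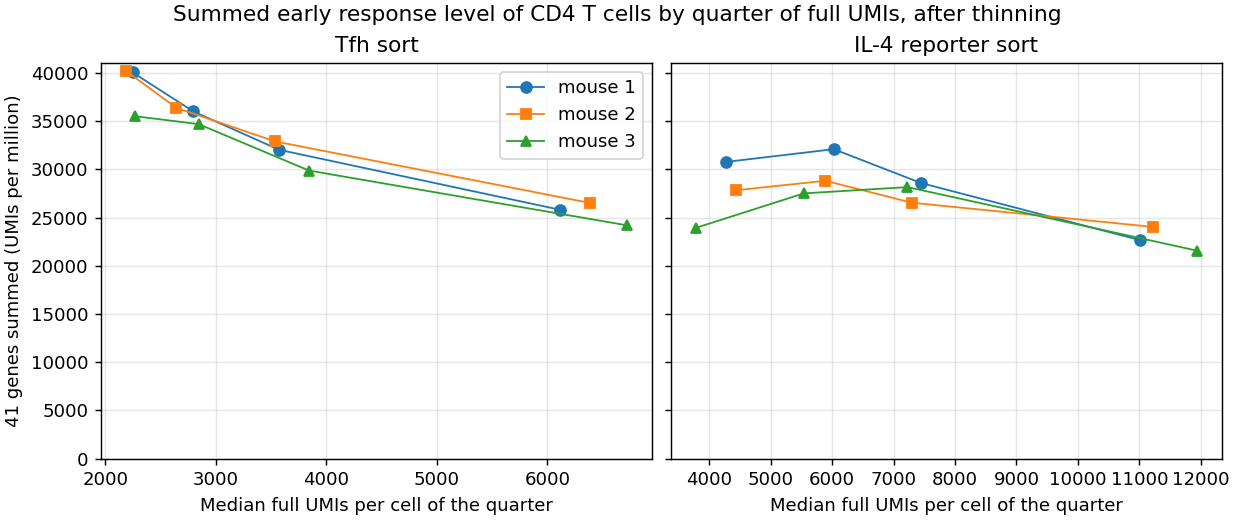
Summed level of the 41 genes (CPM after thinning) in CD4 T cells against the median full UMIs of each of 4 depth bins, with 1 line per mouse. The deepest bin is the lowest in all 6 mice, at 21573 to 26514 CPM.

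CD4 T cells were then split by whether a thinned cell held at least 1 UMI of a cytokine or regulator gene, and UMIs were summed per mouse and group. The sums were compared within mice by edgeR's quasi-likelihood test over all genes, with the mouse as a block, and a gene was called at an adjusted p under 0.05. Changes are on the log2 scale, positive where the first group is higher. A cell with no UMI may still express the gene, and droplet background gives some cells a UMI they did not make. The splits within a sort use the same cells, so their results are not independent of each other. The filter on low counts passed between 35 and 41 of the 41 members, and those left out in 1 or more comparisons were Fosl1, Egr3, Ier3, Dusp4, Dusp5, Klf10 and Gadd45a.

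At equal depth many members were higher, and few lower, in cells with Il21, the cytokine that drives germinal centre B cells. In the Tfh sort 16 of 41 members were higher and 1 lower in Il21+ cells (403, 455 and 237 cells) than in Il21- cells (523, 538 and 321), with 4.32% of all genes called (2.79% higher, 1.53% lower). Among reporter-sort cells 15 of 41 were higher and 1 lower (262, 183 and 274 Il21+ cells), with 3.51% of all genes called (2.46% higher, 1.04% lower). By role, 5 of 9 AP-1 genes, 3 of 4 EGR genes, all 3 NR4A genes and 3 of 5 mRNA decay genes were higher in the Tfh sort. Each of the 4 roles had 3 higher genes in reporter-sort cells. The median change of the members was 0.16 and 0.20, and that of all genes tested -0.0036 and -0.01. Without thinning 14 members were called in the Tfh sort, more of them lower than higher, and 11 in the reporter sort. A second test on the thinned counts, DESeq2, called 11 members in the Tfh sort and 8 in the reporter sort. The higher members had 12 genes in common between the sorts: Fosl2, Junb, Egr1, Egr2, Egr4, Nr4a1, Nr4a2, Nr4a3, Zfp36l1, Btg2, Cd69 and Gadd45b. These are 12 of the 16 called in Tfh-sort cells and 12 of the 15 called in reporter-sort cells. An Il21 UMI was found in 42.5% to 45.8% of Tfh-sort CD4 T cells and 12.2% to 18.2% of its B cells, and in 23.6% to 28.4% and 5.65% to 7.69% in the reporter sort.

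All 3 NR4A genes rose with Il21 in both sorts. Nr4a2 was at 1156, 1067 and 1133 CPM against 930.2, 833 and 819 in Il21+ and Il21- cells of the Tfh sort (log2 0.41, SE 0.05, adjusted p = 3.35e-13). Reporter-sort cells held 872, 743 and 785 CPM against 506, 519 and 489 (log2 0.67, SE 0.07, adjusted p = 4.31e-13). The groups did not overlap in either sort. Nr4a2 also climbed with the number of Il21 UMIs in a cell, with means over the reporter-sort mice of 505, 685, 833 and 1163 CPM at 0, 1, 2 to 3 and 4 or more, although mouse 2 had 706 and 700 CPM at 1 and at 2 to 3. Nr4a3 rose by 0.35 (SE 0.08) and 0.59 (SE 0.09), and Nr4a1 by 0.19 (SE 0.03) and 0.39 (SE 0.06). Nr4a1 lost its call in the Tfh sort without mouse 2 (adjusted p = 0.0521).

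Egr1, Egr2 and Egr4 rose with Il21 as well. Egr4 was at 877, 721 and 884 CPM against 657, 583 and 549.8 in the Tfh sort (log2 0.49, SE 0.06, adjusted p = 7.35e-13). Its levels in the reporter sort were 397, 287 and 432 CPM against 248, 277 and 209 (log2 0.64, SE 0.10, adjusted p = 1.79e-06), with mouse 2 showing the smallest gap. Egr1 rose by 0.26 (SE 0.05) in the Tfh sort and by 0.39 (SE 0.04) in the reporter sort, where it was at 2084, 2319.7 and 2093 CPM against 1854, 1609.6 and 1493. Egr2 rose by 0.28 and 0.40. Atf3, an AP-1 relative, showed the largest rise in the Tfh sort (199, 244 and 188 CPM against 143, 140.3 and 153, log2 0.61, SE 0.11, adjusted p = 4.98e-06), and without mouse 2 its adjusted p was 0.0934. Further Tfh-sort rises were Maff (0.41), Fosl2 (0.37), Zfp36l1 (0.34), Btg2 (0.28), Btg1 (0.28), Gadd45b (0.26) and Jund (0.22), and further reporter-sort rises were Fosl2 (0.49), Gadd45b (0.28), Ier2 (0.26), Zfp36l1 (0.24), Zfp36 (0.24) and Btg2 (0.20). Btg1, a brake on proliferation, was at 2593, 2664 and 2437 CPM against 2216, 2351 and 1905 in the Tfh sort, without overlap.

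Cd69 rose by 0.21 (SE 0.04) and 0.30 (SE 0.04). Fos showed a call in the reporter sort only, where it was at 5302, 4883 and 5339 CPM against 4810.1, 4117 and 3907 and rose by 0.28 (SE 0.03, adjusted p = 4.42e-10). Tfh-sort levels of Fos were 6300.2, 6803 and 5736 CPM against 6439.8, 6402 and 6047, which overlap (log2 0.04, SE 0.02, adjusted p = 0.417). Whether this differs between the sorts was not tested. Jun was called in neither (-0.09 and 0.06). Dusp1 was the lower member in Il21+ Tfh-sort cells, at 761, 945 and 675 CPM against 945, 970.3 and 958 (log2 -0.20, SE 0.05, adjusted p = 0.00577), after edgeR's scaling between libraries lower in 2 of 3 mice, and was lost without mouse 1 (adjusted p = 0.167) or mouse 3 (0.304). In reporter-sort cells Dusp1 was not called (0.13, adjusted p = 0.519), and Rgs1 was the lower member (82.1, 145 and 87.6 CPM against 188, 196 and 90.1, log2 -0.60, SE 0.15, adjusted p = 0.00496), which was lost without mouse 1 (adjusted p = 0.671). Without each mouse in turn, 11 of the 17 Tfh-sort calls and 10 of the 16 reporter-sort calls held in every fit. Those that did not were Fosl2, Junb, Nr4a1, Dusp1, Atf3 and Gadd45b in the Tfh sort and Fosl2, Junb, Zfp36, Zfp36l1, Btg2 and Rgs1 in the reporter sort. With cells matched for full depth 14 higher and 1 lower were called in the Tfh sort, and the call was lost for Fosl2 (0.36, adjusted p = 0.0553) and Junb (0.07, adjusted p = 0.326). The matched reporter-sort cells had 12 higher and 1 lower, and the call was lost for Fosl2 (0.45, adjusted p = 0.16), Junb (0.14, adjusted p = 0.187) and Zfp36 (0.24, adjusted p = 0.115).

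In every mouse a smaller share of Il21+ than of Il21- cells lay in the low tail. Of Tfh-sort cells 0.993%, 1.10% and 0% of Il21+ and 5.54%, 5.02% and 6.23% of Il21- cells held fewer than 20 UMIs of the 41 genes, where 0 of 237 cells in mouse 3 allows a share of up to 1.27%. The shares were 3.44%, 4.92% and 9.12% against 11.8%, 14.7% and 20.1% in the reporter sort. This was not particular to Il21, as every mouse showed it for Il4 and Il2 in both sorts and for Il13 in the reporter sort. Tfh-sort shares were 1.90%, 1.21% and 1.88% against 4.94%, 5.22% and 5.14% for Il4. For Il2 they were 2.04%, 1.47% and 1.14% against 4.68%, 4.44% and 5.78%. Cycling genes (6 summed) were at 227 to 344 CPM in Il21+ and 466 to 589 in Il21- cells of the Tfh sort, and with cycling cells left out 15 members were called there. B-cell genes were also lower in these Il21+ cells (23.2 to 36.3 CPM against 43.6 to 57.6), and in the reporter sort cytotoxic genes were (19.1 to 38.2 CPM against 41.4 to 66.6, in the first and second group 4 and 2 of 6 at 0), and the part of either list was not tested. Asking for at most 5% mitochondrial UMIs left 2 of the reporter-sort calls (1 higher, 1 lower) and 18 in the Tfh sort. This limit lies below the mean share of every reporter-sort depth bin (5.16% to 6.64%). It lies above that of every Tfh-sort bin (2.83% to 3.99%). The part of lost cells in these counts was not tested, here or in the splits below. Among cells with 0 Il2 UMIs, 14 members were higher with Il21 in the Tfh sort and 12 higher and 1 lower in the reporter sort.

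Cells with Il2, the T-cell growth factor, were higher in the NR4A genes and Egr1 in both sorts, and lower in Fos and Dusp1 in the Tfh sort. There 15 of 41 members were higher and 3 lower in Il2+ cells (392, 407 and 264 cells, against 534, 586 and 294), with 3.45% of all genes called (2.56% higher, 0.886% lower). In reporter-sort cells 14 of 39 members were higher and 0 lower (141, 115 and 129 Il2+ cells), with 2.19% of all genes called (1.66% higher, 0.523% lower). The median change of the members was 0.10 and 0.26, beside -0.0037 and -0.01 over all genes. The sorts had 9 higher members in common, Junb, Egr1, Nr4a1, Nr4a2, Nr4a3, Btg2, Atf3, Cd69 and Rgs1, which is 9 of 15 and 9 of 14. The Il21 and Il2 splits share cells: an Il21 UMI was in 51.5% to 52.1% of Il2+ and 34.0% to 41.5% of Il2- cells of the Tfh sort. An Il2 UMI was in 40.99% to 47.3% of CD4 T cells and 15.1% to 17.4% of B cells of the Tfh sort, and in 12.5% to 15.3% and 1.92% to 7.14% in the reporter sort.

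Fos was lower in Il2+ than in Il2- cells of the Tfh sort, at 5519, 5989 and 5241 CPM against 7010.3, 7001 and 6520.4 (log2 -0.25, SE 0.03, adjusted p = 4.68e-10). Dusp1, the phosphatase whose transcript followed Fos most closely from cell to cell in this sort, was at 635, 794 and 659 CPM against 1033, 1073 and 998 (log2 -0.53, SE 0.05, adjusted p = 4.91e-11). The groups did not overlap for either gene. The means over mice were lower at each step of the Il2 count, at 6844, 6357, 5522 and 5001 CPM for Fos and 1035, 849.5, 758 and 537 for Dusp1 at 0, 1, 2 to 3 and 4 or more Il2 UMIs. Fos in mouse 2 was the exception to the first step, at 7001 CPM with 0 and 7252 with 1 Il2 UMI. Il2+ cells were deeper, with medians of 3448, 3122 and 3452 full UMIs against 2981, 2914 and 3036. With cells matched for depth the changes were -0.18 (adjusted p = 3.19e-05) for Fos and -0.47 (adjusted p = 1.06e-07) for Dusp1, and both calls held without each mouse in turn.

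Reporter-sort Fos went the other way in 2 of 3 mice, at 4681, 4804 and 5329 CPM against 4998, 4209.5 and 4138 (log2 0.19, SE 0.05, adjusted p = 0.0337), a call that was lost without mouse 3 (adjusted p = 0.668). Dusp1 was not called there (-0.12, adjusted p = 0.678), and the difference between the sorts was not tested. Klf4, a Krüppel-like factor linked to quiescence, was the other lower member of the Tfh sort (128, 140.0 and 125 CPM against 188, 177 and 156, log2 -0.38, SE 0.11, adjusted p = 0.0485), and it was not called without mouse 1, 2 or 3.

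Nr4a2 and Egr4 were higher in the same Il2+ cells in which Fos was lower. Nr4a2 was at 1219, 1072 and 1064 CPM against 889, 848 and 852 in the Tfh sort (log2 0.42, SE 0.05, adjusted p = 2.44e-09). Levels in the reporter sort were 787, 896 and 899 CPM against 578, 516 and 519.9 (log2 0.71, SE 0.08, adjusted p = 1.58e-07). Egr4 was at 901, 806 and 763 CPM against 644, 535 and 628 in the Tfh sort (log2 0.51, SE 0.06, adjusted p = 1.70e-09), without overlap. Atf3 had the largest change in the reporter sort, at 145, 274 and 202 CPM against 60.7, 104 and 56.9 (log2 1.53, SE 0.16, adjusted p = 1.12e-08). It changed by 0.50 in the Tfh sort, where it was not called without mouse 1 (adjusted p = 0.0594) or mouse 2 (0.198). Nr4a3 rose by 0.36 (SE 0.08) in the Tfh sort and by 0.86 (SE 0.10) in the reporter sort, at 525, 587 and 539 CPM against 324, 307 and 297 there, and Nr4a1 by 0.20 (SE 0.04) and 0.42 (SE 0.07). Other rises were Rgs1 (0.47), Maff (0.35), Btg2 (0.32), Zfp36l1 (0.31) and Egr2 (0.29) in the Tfh sort and Fosl2 (0.85), Dusp5 (0.73), Gadd45b (0.57), Rgs1 (0.56) and Btg2 (0.45) in the reporter sort. Rgs1 was not called in the reporter sort without mouse 1, 2 or 3 (adjusted p = 0.0746, 0.354 and 0.0877), nor in the Tfh sort without mouse 1 (0.363) or 2 (0.221).

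Cd69 rose by 0.13 (SE 0.04) and 0.40 (SE 0.06) with Il2, Egr1 by 0.18 (SE 0.05) and 0.36 (SE 0.06), and Jun was at -0.28 (adjusted p = 0.0772) and -0.34 (adjusted p = 0.0631). Without each mouse in turn 11 of the 18 Tfh-sort calls held, and 10 of 14 in the reporter sort. The calls that did not hold were Junb, Egr1, Nr4a3, Klf4, Atf3, Cd69 and Rgs1 in the Tfh sort and Fos, Ier2, Dusp5 and Rgs1 in the reporter sort. Cells matched for depth gave 15 higher and 2 lower in the Tfh sort, and the call was lost for Klf4 (-0.28, adjusted p = 0.283) and Rgs1 (0.42, adjusted p = 0.114). In the reporter sort they gave 10 higher and 0 lower, and the call was lost for Fosl2 (0.51, adjusted p = 0.136), Junb (0.19, adjusted p = 0.0933), Ier2 (0.19, adjusted p = 0.4) and Dusp5 (0.65, adjusted p = 0.0695). Il2+ cells of the Tfh sort had less of the cycling genes (280.1 to 396 CPM against 399.8 to 565) and of the B-cell genes (24.6 to 41.8 CPM against 44.2 to 52.0), and with cycling cells left out 12 members were higher and 4 lower. Reporter-sort Il2+ cells had less of the cytotoxic genes (8.70 to 31.0 CPM against 36.5 to 63.5) and of the myeloid genes (69.6 to 85.3 CPM against 87.6 to 91.7), and the part of these and of the B-cell genes was not tested. Counts without mouse 1, 2 and 3 were 12, 12 and 14 in the Tfh sort. Among cells with 0 Il21 UMIs 7 members were higher and 2 lower with Il2 in the Tfh sort (Fos -0.19 and Dusp1 -0.52), and 14 higher in the reporter sort. At most 5% mitochondrial UMIs left 3 calls in the reporter sort, and without thinning, when the deeper Il2+ cells keep their full counts, 3 members were higher and 14 lower in the Tfh sort.

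**Figure D4:**
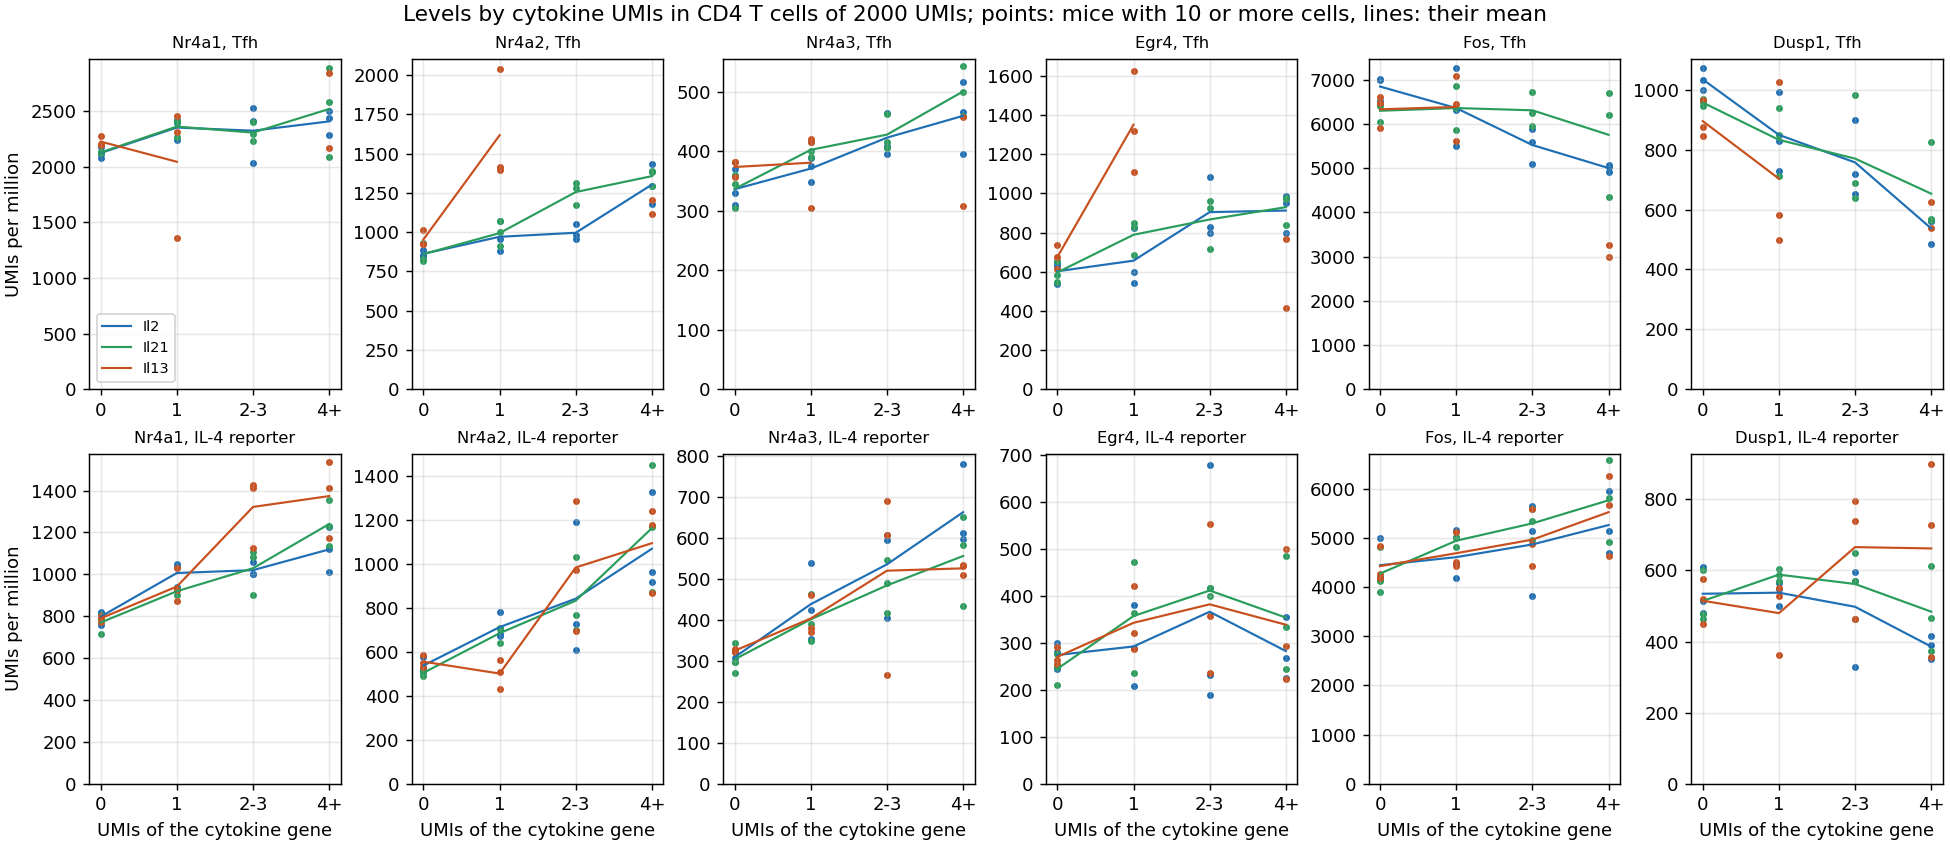
Levels (CPM) of Nr4a1, Nr4a2, Nr4a3, Egr4, Fos and Dusp1 by the number of Il2, Il21 or Il13 UMIs in a CD4 T cell of 2000 UMIs, for each sort, with points for mice with 10 or more cells and lines for the mean of those mice, which can be fewer than 3. The mean of Nr4a2 climbs with Il2 and Il21 in both sorts, while in the Tfh sort the mean of Fos goes from 6844 to 5001 and Dusp1 from 1035 to 537 along the Il2 count.

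Reporter-sort cells with Il13, an effector cytokine of Th2 cells, differed most in Ier3, Rgs1, Atf3 and Dusp5 among the members tested. There 13 of 39 were higher and 1 lower in Il13+ cells (119, 124 and 85 cells, against 804, 652 and 949), with 6.31% of all genes called (4.13% higher, 2.18% lower). The Tfh sort had few Il13+ cells (36, 40 and 19), and 5 of 40 members were higher and 3 lower, with 1.61% of all genes called (1.08% higher, 0.531% lower). Il13 UMIs were in 12.9%, 16.0% and 8.22% of reporter-sort CD4 T cells and in 2.86%, 17.3% and 4.03% of its B cells, so in mouse 2 the share in CD4 T cells was no higher than this background, and without mouse 2 10 members were called. With 2 or more Il13 UMIs asked of a positive cell, 18 members were higher and 4 lower in the reporter sort.

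Rgs1, which dampens G-protein signals from chemokine receptors, was at 521, 528 and 188 CPM against 104, 119 and 80.6 in Il13+ and Il13- cells of the reporter sort (log2 2.00, SE 0.16, adjusted p = 8.58e-08). Mouse 3 was the low one, and at 4 or more Il13 UMIs it stood at 179 CPM (14 cells) where mice 1 and 2 stood at 889 and 957. Ier3, a stress and survival gene, was at 235, 226 and 47.1 CPM against 23.6, 34.5 and 19.0 (log2 2.71, SE 0.25, adjusted p = 4.83e-07), again least in mouse 3. Atf3 was at 223, 331 and 188 CPM against 51.6, 90.5 and 64.8 (log2 1.84, SE 0.16, adjusted p = 2.90e-07). Dusp5 was at 294, 339 and 206 CPM against 119, 119.6 and 90.6 (log2 1.34, SE 0.14, adjusted p = 3.68e-06). For these 4 genes the groups did not overlap and the calls held without each mouse in turn.

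Smaller rises in Il13+ reporter-sort cells were Fosl2 (0.80), Gadd45b (0.55), Nr4a3 (0.51), Nr4a1 (0.51), Junb (0.47), Nr4a2 (0.47), Btg2 (0.45) and Ier2 (0.31). Nr4a1 was at 1197, 1105 and 1088 CPM against 801, 798 and 770.3, without overlap. Egr1 rose by 0.22 (2193, 2048 and 1912 CPM against 1879, 1725 and 1629, adjusted p = 0.0397), and Zfp36l1 was the lower member (789.9, 847 and 753 CPM against 1030.5, 982 and 959, log2 -0.32, SE 0.08, adjusted p = 0.0181). Neither was called without mouse 1, 2 or 3, and Fosl2, Egr1, Nr4a3, Ier2 and Zfp36l1 were the calls that did not hold in every such fit. Among cells matched for depth 11 higher and 0 lower were called, and the call was lost for Egr1 (0.23, adjusted p = 0.0776), Nr4a3 (0.38, adjusted p = 0.0752), Ier2 (0.31, adjusted p = 0.0507) and Zfp36l1 (-0.24, adjusted p = 0.167). Not called in the whole set were Fos (0.18, adjusted p = 0.0713), Jun (-0.05, adjusted p = 0.88), Dusp1 (0.19, adjusted p = 0.386) and Cd69 (0.10, adjusted p = 0.495). Cycling genes were at 424 to 906 CPM in Il13+ and 267 to 384 in Il13- cells, and cytotoxic genes (6 summed, 4 of the 6 at 0 in Il13+ cells) at 117 to 197 and 26.3 to 43.7. Plasma-cell genes (4 summed) were at 92.4 to 112 CPM against 81.7 to 92.0, and the part of the cytotoxic and plasma-cell genes was not tested. With cycling cells left out, 16 members were called. With cells of 3 or more myeloid UMIs kept, 12 members were higher and 10 lower.

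In Tfh-sort Il13+ cells Rgs1 was at 556, 262 and 158 CPM against 85.4, 122 and 85.3 (log2 1.75, SE 0.23, adjusted p = 7.76e-12), with mouse 1 the highest. Egr4 was at 1208, 1375 and 1158 CPM against 734, 615 and 675 (log2 0.84, SE 0.13, adjusted p = 4.76e-09). Dusp5 changed by 1.18, Nr4a2 by 0.54 and Ier3 by 2.54, the last on 17 UMIs in Il13+ cells and with none in mouse 3. Ppp1r15a, which restarts translation after stress, was lower (278, 388 and 158 CPM against 507, 543 and 455, log2 -0.85, SE 0.19, adjusted p = 9.93e-04), as were Dusp1 (-0.48) and, with overlapping groups, Fos (4278, 5862 and 6184 CPM against 6464, 6616 and 5905, -0.32), whose level in mouse 3 was the lower one only after scaling between libraries. No call was made for Jun (-0.74, adjusted p = 0.0981), Egr1 (-0.33, adjusted p = 0.302), Nr4a1 (-0.01, adjusted p = 0.994) and Cd69 (-0.27, adjusted p = 0.322). None of the 8 calls held without each mouse in turn: 3, 2 and 0 were made without mice 1, 2 and 3. Matched for depth, 2 were made, Rgs1 (2.57) and Egr4 (0.98), with Dusp1 at 0.01, and among cells with 0 Il2 UMIs none. Myeloid genes (6 summed, in the first and second group 4 and 2 of 6 at 0) were at 125 to 150 CPM against 89.9 to 110.4 in Il13- cells, and their part was not tested. The sorts had 4 higher members in common, Nr4a2, Ier3, Dusp5 and Rgs1, which is 4 of 5 and 4 of 13.

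Few members were called with Il4 transcript, although at equal depth most changes were positive in both sorts. In the Tfh sort 3 of 41 were higher and 0 lower in Il4+ cells (420, 495 and 266 cells, against 506, 498 and 292), with 0.927% of all genes called (0.556% higher, 0.371% lower). The median change of the members was 0.06, beside -0.0041 over all genes, and 27 were positive. Egr4 was at 861, 727 and 840.2 CPM against 663, 565 and 557 (log2 0.43, SE 0.06, adjusted p = 5.79e-05) and kept its call without each mouse. Nr4a2 was at 1105, 1026 and 1175 CPM against 965, 854 and 750 (log2 0.34, SE 0.06, adjusted p = 0.0028) and also kept it, and Egr2 (0.23) was lost without mouse 1 (adjusted p = 0.0904) or mouse 3 (0.178). The test made no call for Fos (0.10, adjusted p = 0.21), Jun (-0.12, adjusted p = 0.754), Egr1 (0.08, adjusted p = 0.636), Nr4a1 (0.05, adjusted p = 0.692), Dusp1 (0.03, adjusted p = 0.957) and Cd69 (0.04, adjusted p = 0.865). Matched for depth, 8 members were higher, and 2, 5 and 2 were called without mice 1, 2 and 3. Without thinning 12 members were called, most of them lower. An Il4 UMI was in 45.4% to 49.8% of CD4 T cells and 12.9% to 14.6% of B cells. Il4+ cells had less of 3 lists without overlap between the groups: cycling genes (306 to 376 CPM against 413 to 584), cytotoxic genes (10.1 to 24.4 CPM against 43.2 to 99.3, in the first and second group 3 and 2 of 6 at 0) and B-cell genes (16.9 to 45.5 CPM against 50.2 to 53.4). With cycling cells left out 2 members were called, and the part of the other lists was not tested.

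Although the reporter sort was gated on GFP, an Il4 UMI was in 8.13% to 9.66% of CD4 T cells, and in 5.71% and 1.61% of B cells of mice 1 and 3 and 0 of 52 in mouse 2, which allows a share of up to 5.77%. There 6 of 40 members were higher in Il4+ cells (75, 75 and 88 cells) and 0 lower, with 0.64% of all genes called (0.595% higher, 0.0457% lower). They were Rgs1 (1.02), Dusp5 (0.85), Nr4a3 (0.46), Gadd45b (0.32), Btg2 (0.29) and Fos (0.23). The median change of the members was 0.23, beside -0.0079 over all genes, and 35 were positive. Rgs1 was at 380, 253 and 170.5 CPM against 139, 177 and 81.9 (log2 1.02, SE 0.17, adjusted p = 5.41e-05), with overlapping groups, and Fos at 5487, 4840 and 5239 CPM against 4902, 4239.7 and 4198. Without mice 1, 2 and 3 there were 0, 7 and 2 calls. With depth matched 4 higher and 0 lower were called, and the call was lost for Nr4a3 (0.38, adjusted p = 0.534), Dusp5 (0.68, adjusted p = 0.361) and Gadd45b (0.32, adjusted p = 0.124). Below the threshold stayed Jun (0.25, adjusted p = 0.589), Egr1 (0.14, adjusted p = 0.692), Nr4a1 (0.32, adjusted p = 0.0658), Dusp1 (0.22, adjusted p = 0.646) and Cd69 (0.17, adjusted p = 0.526). No member was called with Il4 in both sorts.

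Gata3, the lineage factor of Th2 cells, went with Ier3, Rgs1 and Dusp5 in the reporter sort, where 5 of 40 members were higher and 1 lower (262, 214 and 271 Gata3+ cells) with 2.57% of all genes called (1.83% higher, 0.74% lower). Ier3 was at 115, 117 and 33.2 CPM against 25.7, 45.4 and 17.0 (log2 1.56, SE 0.19, adjusted p = 6.04e-12). Rgs1 was at 292, 308 and 109 CPM against 105, 137 and 82.6 (log2 1.07, SE 0.12, adjusted p = 1.78e-14). The groups overlap across mice for both, with mouse 3 low, but each mouse had the same direction. Dusp5 changed by 0.64 (SE 0.12), Fosl2 by 0.38 and Egr4 by 0.30, and Klf4 was lower (-0.69). Ier3, Rgs1 and Dusp5 held without each mouse in turn, and without mice 1, 2 and 3 there were 3, 5 and 7 calls. Depth-matched cells gave 4 higher and 0 lower, and the call was lost for Fosl2 (0.39, adjusted p = 0.2) and Klf4 (-0.67, adjusted p = 0.105). Left uncalled were Fos (0.07, adjusted p = 0.607), Jun (0.06, adjusted p = 0.89), Egr1 (0.08, adjusted p = 0.609), Nr4a1 (0.08, adjusted p = 0.728), Dusp1 (0.12, adjusted p = 0.624) and Cd69 (-0.03, adjusted p = 0.921). Cytotoxic genes (6 summed) were at 73.8 to 161 CPM in Gata3+ and 15.1 to 22.3 in Gata3- cells, with 4 of the 6 at 0 in Gata3+ cells, and B-cell genes (6 summed) at 2.34 to 11.1 CPM against 14.4 to 17.7. The part of either list was not tested.

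In the Tfh sort 1 of 40 members was called with Gata3 (195, 159 and 100 Gata3+ cells), with 0.445% of all genes called (0.249% higher, 0.196% lower). It was Btg1, lower at 2244, 2204 and 1755 CPM against 2417, 2549.8 and 2213 (log2 -0.22, SE 0.05, adjusted p = 0.0209), and the call was lost without mouse 2 (adjusted p = 0.887) or mouse 3 (0.26) and with depth matched (-0.16, adjusted p = 0.543). B-cell genes were at 25.2 to 35.9 CPM against 36.0 to 52.2 in Gata3- cells, and their part was not tested. Not called were Fos (0.06, adjusted p = 0.822), Jun (0.01, adjusted p = 0.995), Egr1 (0.02, adjusted p = 0.973), Nr4a1 (-0.07, adjusted p = 0.843), Dusp1 (0.02, adjusted p = 0.982) and Cd69 (-0.21, adjusted p = 0.0531). Cd69 was lower in each mouse, at 1597, 1667 and 1575 CPM against 1761, 1956 and 1823.

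Cells with Cxcr5 transcript, which encodes the receptor that leads cells into follicles, held less of these genes in the reporter sort. In Cxcr5+ cells (69, 69 and 104 cells, against 854, 707 and 930) 20 of 40 members were lower and 0 higher, with 4.11% of all genes called (1.15% higher, 2.97% lower), and the median change of the members was -0.48 beside 0.01 over all genes. The summed level was 22601, 20312 and 19629.8 CPM against 29008, 27438 and 25917 in Cxcr5- cells. Of Cxcr5+ cells 18.8%, 23.2% and 41.3% held fewer than 20 UMIs of the 41 genes, against 8.67%, 11.3% and 14.5%. Rgs1 was at 36.2, 43.5 and 52.9 CPM against 168, 198 and 93.5 (log2 -1.75, SE 0.27, adjusted p = 1.22e-06). Dusp5 was at 79.7, 58.0 and 19.2 CPM against 147, 164 and 109 (log2 -1.60, SE 0.27, adjusted p = 1.07e-05). The abundant members were lower as well. Fos was at 3579.7, 3116 and 3337 CPM against 5060.3, 4413 and 4393 (log2 -0.55, SE 0.06, adjusted p = 2.90e-10). Junb was at 1819, 1674 and 1629.8 CPM against 2698, 2558 and 2273 (log2 -0.64, SE 0.07, adjusted p = 1.87e-10). None of these 4 genes had overlapping groups. Further falls were Egr4 (-0.85), Gadd45b (-0.80), Dusp2 (-0.74), Ier2 (-0.71), Klf6 (-0.69) and Egr1 (-0.68), and Nr4a1 (-0.60), Nr4a2 (-0.64), Nr4a3 (-0.57), Cd69 (-0.54) and Dusp1 (-0.40) were lower too, while Jun was not called (-0.20, adjusted p = 0.474).

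Leaving out mouse 3, which gave the most Cxcr5+ cells, left 5 of these calls, and without mice 1 and 2 there were 16 and 15. Fos, Junb, Ier2, Gadd45b and Rgs1 were called without each mouse in turn. Matched for depth, 15 members were lower, and the call was lost for Egr2 (-0.33, adjusted p = 0.273), Dusp1 (-0.46, adjusted p = 0.0662), Zfp36 (-0.17, adjusted p = 0.616), Klf6 (-0.31, adjusted p = 0.695) and Csrnp1 (-0.65, adjusted p = 0.104). Mean mitochondrial shares were 6.35%, 6.45% and 6.42% in Cxcr5+ and 5.67%, 5.87% and 5.70% in Cxcr5- cells, and asking for at most 5% left 6 lower. A Cxcr5 UMI was in 7.48% to 10.1% of CD4 T cells and 31.4% to 39.5% of B cells, which carry this receptor. B-cell genes (6 summed, 3 of the 6 at 0 in Cxcr5+ cells) were at 0 to 36.2 CPM in Cxcr5+ and 9.90 to 15.6 in Cxcr5- cells, and among cells with 0 UMIs of Il13 and of the B-cell genes 20 members were lower. Cytotoxic genes (6 summed, in the first and second group 4 and 2 of 6 at 0) were at 0 to 7.25 CPM against 39.2 to 60.8 in Cxcr5- cells, without overlap, and their part was not tested.

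Among Tfh-sort cells, which were gated on surface CXCR5, edgeR called 0 of 40 members between cells with and without a Cxcr5 UMI (164, 221 and 123 and 762, 772 and 435 cells), with 0.106% of all genes called (0.0353% higher, 0.0705% lower). At an unadjusted p under 0.05 there was 1 member, and DESeq2 called 0, and with depth matched edgeR called 0. Fos was at 6521, 6409.5 and 5594 CPM against 6348, 6637 and 6006, with overlap (-0.04), and the others were Jun (-0.14, adjusted p = 0.888), Egr1 (0.03, adjusted p = 0.97), Nr4a1 (-0.08, adjusted p = 0.863), Dusp1 (0.01, adjusted p = 0.999) and Cd69 (0.09, adjusted p = 0.84).

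Foxp3, the factor of regulatory T cells, was too rare at 2000 UMIs (12, 9 and 3 cells in the Tfh sort, 4, 2 and 2 in the reporter sort). With full counts and depth-matched Foxp3- cells, the 29, 27 and 12 Foxp3+ cells of the Tfh sort were higher in 2 of 35 members and lower in 0, with 1.92% of all genes called (1.23% higher, 0.694% lower). Junb was at 4522, 3715 and 3838 CPM against 3349, 2322 and 3073 (log2 0.51, SE 0.09, adjusted p = 6.14e-04). Dusp4, a phosphatase of ERK, was at 177, 154 and 67.6 CPM against 32.9, 34.7 and 50.4 (log2 2.02, SE 0.41, adjusted p = 0.00191), on 59 UMIs against 15. The groups did not overlap for either gene. No call was made for Fos (-0.21, adjusted p = 0.319), Jun (-0.04, adjusted p = 0.988), Egr1 (-0.0041, adjusted p = 0.998), Nr4a1 (0.30, adjusted p = 0.262), Dusp1 (0.0016, adjusted p = 1) and Cd69 (-0.34, adjusted p = 0.319). Without the depth match 1 member was higher and 9 were lower, beside median depths of 4076, 4920 and 4496 UMIs in Foxp3+ and 2795, 2611 and 2852 in Foxp3- cells. Among the matched cells cytotoxic genes (6 summed, in the first and second group 4 and 3 of 6 at 0) were at 80.2 to 152 CPM against 5.48 to 52.0 and plasma-cell genes at 129.9 to 186 CPM against 196 to 236, and their part was not tested.

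**Figure D5:**
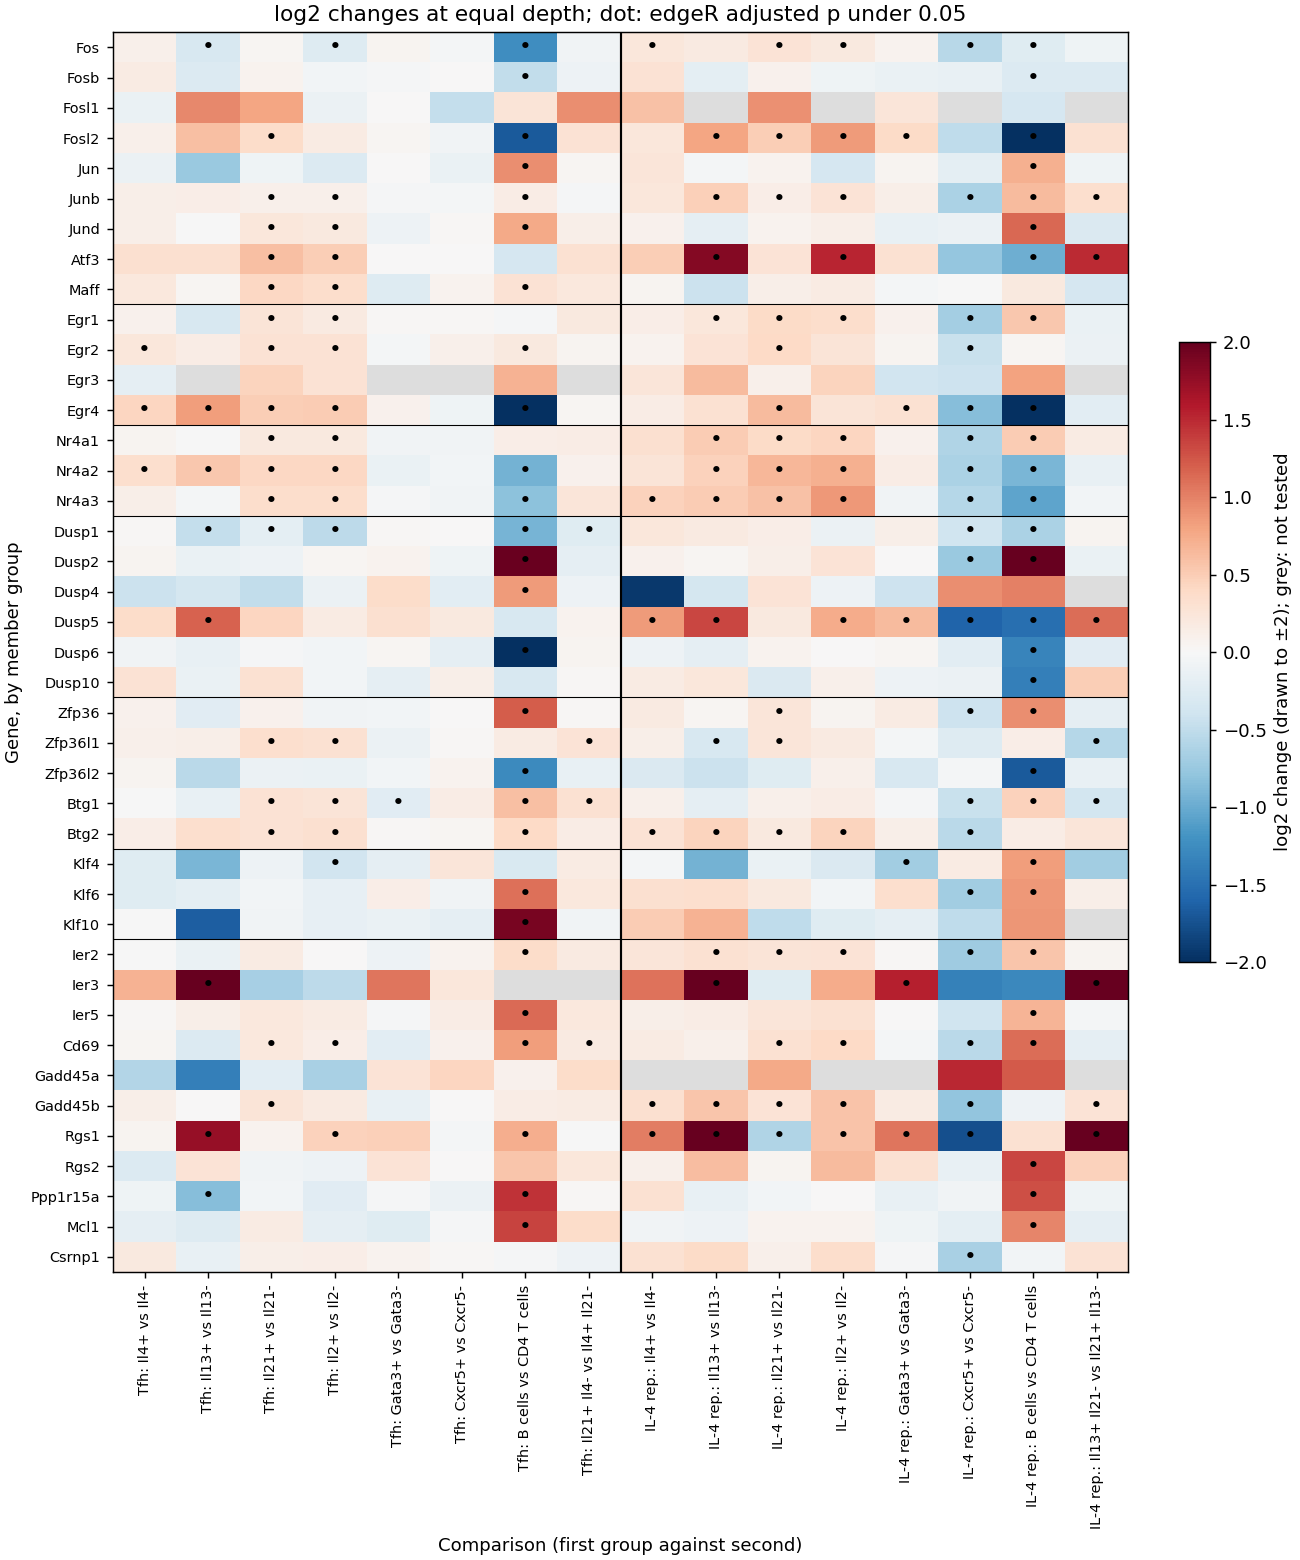
Log2 changes of the 41 genes (rows, by role; colours drawn to plus or minus 2, grey where not tested) in the comparisons within CD4 T cells and of B cells with CD4 T cells, for each sort, where a dot marks an edgeR adjusted p under 0.05. The NR4A genes are higher with Il2 and Il21 in both sorts, 20 genes are lower with Cxcr5 in the reporter sort, and B cells differ in both directions.

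Cells with only 1 cytokine of a pair were also set against each other. Reporter-sort Il13+ Il21- cells (91, 94 and 67) against Il21+ Il13- cells (234, 153 and 256) had 6 of 36 members higher and 2 lower, with 8.61% of all genes called (4.85% higher, 3.77% lower). Ier3 was at 214, 239 and 44.8 CPM against 25.6, 19.6 and 13.7 (log2 2.96, SE 0.30, adjusted p = 3.27e-08). Rgs1 was at 626, 574 and 59.7 CPM against 70.5, 98.0 and 46.9 (log2 2.46, SE 0.25, adjusted p = 5.46e-08), with mouse 3 far below mice 1 and 2. Atf3 was at 258, 372 and 172 CPM against 76.9, 101 and 99.6 (log2 1.49, SE 0.22, adjusted p = 1.83e-05). These genes were thus higher where Il13 was found without Il21, with overlapping groups for Rgs1 alone. Dusp5 was at 313, 335 and 201 CPM against 156, 114 and 109 (log2 1.12, SE 0.19, adjusted p = 1.67e-04). Zfp36l1 was at 791, 856 and 664 CPM against 1137, 1183 and 1062 (log2 -0.57, SE 0.10, adjusted p = 2.65e-04). These 5 genes held without each mouse in turn, and Junb (0.33), Gadd45b (0.27) and Btg1 (-0.36) did not. The test made no call for Fos (-0.09, adjusted p = 0.509), Jun (-0.08, adjusted p = 0.774), Egr1 (-0.14, adjusted p = 0.364), Nr4a1 (0.16, adjusted p = 0.371), Dusp1 (0.05, adjusted p = 0.886) and Cd69 (-0.18, adjusted p = 0.226). With depth matched 6 higher and 1 lower were called, and the call was lost for Btg1 (-0.13, adjusted p = 0.65). Cycling genes were at 495 to 1089.5 CPM against 231 to 301, and with cycling cells left out 7 members were called. Cytotoxic genes (in the first and second group 4 and 4 of 6 at 0) were at 122 to 225 CPM against 3.27 to 29.9, and their part was not tested. With cells of 3 or more myeloid UMIs kept 4 members were higher and 14 lower.

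Tfh-sort Il21+ Il4- cells (200, 218 and 116) against Il4+ Il21- cells (217, 258 and 145) had 3 of 39 members higher and 1 lower, with 1.78% of all genes called (1.18% higher, 0.601% lower). Btg1 was at 2820, 2716 and 2483 CPM against 2362, 2281 and 2014 (log2 0.31, SE 0.05, adjusted p = 2.40e-07), Zfp36l1 rose by 0.27 (SE 0.06), Cd69 by 0.18 (higher in 2 of 3 mice), and Dusp1 was at 792, 844 and 767 CPM against 972, 1039 and 921 (log2 -0.25, SE 0.07, adjusted p = 0.0435). None of the 4 held without each mouse in turn, and without mice 1, 2 and 3 there were 0, 1 and 3 calls. With depth matched 2 higher and 0 lower were called, and the call was lost for Dusp1 (-0.23, adjusted p = 0.175) and Cd69 (0.17, adjusted p = 0.219). Below the threshold stayed Fos (-0.07, adjusted p = 0.597), Jun (0.04, adjusted p = 0.977), Egr1 (0.19, adjusted p = 0.189) and Nr4a1 (0.15, adjusted p = 0.116). Neither cycling genes (280 to 371 CPM against 417 to 512) nor cytotoxic genes (34.4 to 77.5 CPM against 7.75 to 27.6, in the first and second group 3 and 3 of 6 at 0) overlapped between the groups. Leaving out cycling cells gave 3 calls, and the part of the cytotoxic genes was not tested.

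B cells that had come through the same sorts differed from CD4 T cells in most members. In the Tfh sort 18 of 40 members were higher and 9 lower in B cells (139, 121 and 103 cells), with 33.2% of all genes called (18.4% higher, 14.7% lower), and among reporter-sort cells 16 of 41 were higher and 12 lower (70, 52 and 124 cells), with 19.8% of all genes called (10% higher, 9.81% lower). The sorts had 12 higher members in common (Jun, Junb, Jund, Ier2, Ier5, Dusp2, Zfp36, Btg1, Klf6, Cd69, Ppp1r15a and Mcl1) and 9 lower ones (Fos, Fosb, Fosl2, Egr4, Nr4a2, Nr4a3, Dusp1, Dusp6 and Zfp36l2). The former are 12 of 18 and 12 of 16 and the latter 9 of 9 and 9 of 12. Dusp2, a nuclear phosphatase of blood cells, was at 1745, 1512 and 1884 CPM against 518, 459 and 521 in the Tfh sort (log2 1.98, SE 0.08, adjusted p = 3.77e-21). Reporter-sort levels were 1921, 1846 and 1479.8 CPM against 486, 542 and 440.0 (log2 2.00, SE 0.09, adjusted p = 2.64e-31). B cells thus held the higher level of Dusp2 in every mouse. Further rises were Klf10 (1.90), Ppp1r15a (1.44), Mcl1 (1.35), Zfp36 (1.21), Ier5 (1.13), Klf6 (1.10) and Jun (0.92) in the Tfh sort and Rgs2 (1.33), Ppp1r15a (1.29), Jund (1.14), Cd69 (1.12), Mcl1 (0.97), Zfp36 (0.93) and Klf6 (0.87) in the reporter sort, where Rgs2 was higher in 2 of 3 mice and lost without mouse 3 (adjusted p = 0.498).

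Within the AP-1 family the subunits went apart. Fos was at 2137, 2777 and 2092 CPM against 6379, 6586 and 5915 in B cells and CD4 T cells of the Tfh sort (log2 -1.24, SE 0.06, adjusted p = 6.02e-19). Its levels in the reporter sort were 3314, 3462 and 3431 CPM against 4949.6, 4298 and 4287 (log2 -0.23, SE 0.06, adjusted p = 0.00124), and that call was lost without mouse 1 (adjusted p = 0.164). Jund went up in both, at 3665, 4087 and 3573 CPM against 2486, 2753 and 2461 (0.76, SE 0.06) and 3686, 3712 and 3105 CPM against 1832, 1673 and 1771 (1.14, SE 0.06). Jun rose by 0.92 and 0.72 and Cd69 by 0.84 and 1.12. Egr4 was at 140.3, 153 and 102 CPM against 753, 646 and 692 in the Tfh sort (log2 -2.19, SE 0.13, adjusted p = 1.33e-15). Its reporter-sort levels were 0, 48.1 and 68.5 CPM against 290.4, 279 and 268 (log2 -2.48, SE 0.28, adjusted p = 1.00e-11). B cells of both sorts thus held less Fos and Egr4 than the CD4 T cells beside them.

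Lower in B cells of both sorts were also Fosl2 (-1.68 and -2.19), Dusp6 (-2.31 and -1.33), Zfp36l2 (-1.27 and -1.68), Nr4a3 (-0.82 and -1.05), Nr4a2 (-0.94 and -0.92) and Dusp1 (-0.94 and -0.63). Nr4a1 was at 0.14 (adjusted p = 0.09) in the Tfh sort and rose by 0.51 (SE 0.09) in the reporter sort. Egr1 was at -0.02 (adjusted p = 0.903) and rose by 0.54 (SE 0.07). Without each mouse in turn 21 of 27 Tfh-sort and 20 of 28 reporter-sort calls held, and those that did not were Junb, Egr2, Ier2, Dusp4, Rgs1 and Maff in the Tfh sort and Fos, Fosb, Dusp1, Dusp10, Klf4, Klf6, Atf3 and Rgs2 in the reporter sort. Median full depths were 2720, 3331 and 2898 UMIs in Tfh-sort B cells against 3137, 2986 and 3224 in CD4 T cells, and 4968, 4832 and 5384 against 6733, 6460 and 6294 in the reporter sort. The fitted changes carry edgeR's scaling between libraries and the levels in CPM do not: Junb was called higher in Tfh-sort B cells (0.16) although its levels were 3554, 3264 and 3184 CPM against 3690.1, 3479.9 and 3151. Plasma-cell genes (4 summed) stood at 1302 to 3115 CPM in Tfh-sort B cells and 206 to 256 in CD4 T cells, and at 442 to 2036 and 84.1 to 92.1 in the reporter sort. Myeloid genes (6 summed) were at 169 to 660.2 CPM against 91.3 to 111 and 154 to 258 CPM against 86.7 to 90.9, and cycling genes of the Tfh sort at 165 to 322 CPM against 364 to 485. The part of depth, of these lists and of the T-cell RNA found in B-cell droplets was not tested.

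CD8-like cells (2 or more UMIs of Cd8a and Cd8b1) were few, 11 and 12 in mice 1 and 3 of the Tfh sort (mouse 2, with 9, was left out) and 35, 12 and 28 in the reporter sort. In the Tfh sort Ier3 was higher (318 and 125 CPM against 15.1 and 8.96, log2 3.98, SE 0.79, adjusted p = 0.0481) on 10 UMIs, and Dusp1 lower (409 and 250 CPM against 864 and 838, log2 -1.58, SE 0.30, adjusted p = 0.0446), 2 of 40 members with 0.692% of all genes called (0.269% higher, 0.423% lower). The median change of all genes there was -0.57, and with RLE size factors 0 members were called. Left uncalled were Fos (-0.76, adjusted p = 0.096), Jun (0.80, adjusted p = 0.437), Egr1 (-1.10, adjusted p = 0.168), Nr4a1 (-0.26, adjusted p = 0.689) and Cd69 (0.08, adjusted p = 0.974). Reporter-sort CD8-like cells held more Dusp2 (857, 1167 and 768 CPM against 486, 542 and 440.0, log2 0.93, SE 0.22, adjusted p = 0.00238). Egr4 was lower (85.7, 0 and 0 CPM against 290.4, 279 and 268, 6 UMIs in CD8-like cells), as was Rgs1 (0, 0 and 71.4 CPM against 158, 184 and 89.5, 4 UMIs), so that 3 of 38 members were called, with 2.26% of all genes called (0.727% higher, 1.53% lower) and a median change of all genes of -0.28. Without mice 1, 2 and 3 there were 1, 0 and 2 calls. Reporter-sort CD8-like cells were also deeper, with medians of 6900, 8546 and 8732 full UMIs against 6733, 6460 and 6294, while the medians in mice 1 and 3 of the Tfh sort were 3030 and 3426 against 3137 and 3224, and the part of depth was not tested. Not called were Fos (-0.09, adjusted p = 0.936), Jun (0.35, adjusted p = 0.625), Egr1 (-0.27, adjusted p = 0.744), Nr4a1 (-0.10, adjusted p = 0.939), Dusp1 (-0.61, adjusted p = 0.322) and Cd69 (0.42, adjusted p = 0.409).

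Within CD4 T cells most member pairs had a positive but weak correlation from cell to cell. Correlations of thinned counts, taken within each mouse and averaged over the 3 mice, were positive for 591 of 666 member pairs in the Tfh sort (median 0.05) and 591 of 630 in the reporter sort (median 0.09). They describe cells that share a library and a depth. Pairs of other genes were not counted, so whether these shares are particular to the members was not tested. The closest pair was Fos with Dusp1 in the Tfh sort (0.42) and Fos with Egr1 in the reporter sort (0.47). Next in the reporter sort were Egr1 with Btg2 (0.43), Junb with Btg2 (0.43) and Fos with Junb (0.42), and in the Tfh sort Btg1 with Cd69 (0.30), Egr2 with Btg1 (0.29) and Junb with Egr2 (0.29). Fos with Rgs1 (-0.06) and Ier3 with Zfp36l2 (-0.05) were the lowest pairs of the Tfh and the reporter sort.

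Among all 4143 genes seen in 5% or more of Tfh-sort CD4 T cells, those closest to Fos were Dusp1 (0.42), Nfkbia (0.32), Malat1 (0.31), Fosb (0.29) and Tagap (0.25). Nfkbia encodes an inhibitor of NF-κB and Malat1 is a nuclear RNA. Among 4367 reporter-sort genes they were Egr1 (0.47), Junb (0.42), Fosb (0.41), Cd69 (0.40) and Nr4a1 (0.39), all of them members. For Egr1 the closest were Egr2 (0.23), Nfkbid (0.20), Cd69 (0.19), Nr4a1 (0.18) and Zfp36l1 (0.18) in the Tfh sort and Fos (0.47), Btg2 (0.43), Nr4a1 (0.39), Junb (0.38) and Cd69 (0.37) in the reporter sort. For Nr4a1 they were Nfkbid (0.27), Junb (0.26), Tagap (0.24), Nr4a2 (0.23) and Jund (0.23) in the Tfh sort and Egr1 (0.39), Fos (0.39), Junb (0.37), Nfkbid (0.31) and Srgn (0.31) in the reporter sort. Members made up 9 of the 15 places in the Tfh sort and 13 of 15 in the reporter sort.

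The signal chain above these genes was read from a list of 32 transducers (protein kinase C, RAS, MAP kinase, calcineurin, NFAT, SRF, ELK and CREB genes). Of these, 27 to 31 were tested in the Il4, Il13, Il21, Il2, Gata3 and Cxcr5 splits of the Tfh sort, and edgeR called 0 in each. At an unadjusted p under 0.05 there were 1 to 5 per split, and DESeq2 called 0. Of reporter-sort splits, Nfatc1 (0.63) and Prkca (0.45) were higher with Il21, Ppp3ca, a calcineurin subunit, was higher (1.41) and Prkca lower (-0.62) with Il13, and Rasgrp2 was lower with Cxcr5 (-1.94). DESeq2 called 0 transducers in each of these splits as well. Ppp3ca rested on 26 UMIs in Il13+ cells and Rasgrp2 on 5 in Cxcr5+ cells. Whether the sorts differ in this was not tested. Outside these splits, Prkca (-1.13) and Nfatc1 (-0.91) were lower in reporter-sort Il13+ Il21- than Il21+ Il13- cells, where DESeq2 called 1 transducer. Tfh-sort Il21+ Il4- against Il4+ Il21- cells had 0 of 22 called. In B cells 7 of 30 were higher and 4 lower in the Tfh sort, and 3 of 31 higher and 4 lower in the reporter sort. Another list held 33 early genes outside the members, such as NF-κB inhibitors, chemokines and Irf4. With Il21, 13 of the 31 tested were higher and 1 lower in the Tfh sort, and 15 of the 26 tested in reporter-sort cells were higher and 2 lower. With Il2 the counts of higher and lower genes were 13 and 1, and 16 and 2. Tnfsf14, a TNF family ligand, was higher with Il2 (1.02 and 1.30) and Id3, an inhibitor of E proteins, lower (-0.89 and -2.61) in both sorts. With Il13, 5 of 28 were higher and 1 lower in the Tfh sort and 11 of 27 and 2 in the reporter sort, with Phlda1 higher in both (1.75 and 1.94). With Gata3 the counts were 0 higher and 2 lower, and 6 and 0. In Cxcr5+ reporter-sort cells 1 was higher and 12 lower, among them Ccl4 (-2.82), Cish (-2.78), Myc (-1.19) and Irf4 (-1.14). In Il4+ cells of the Tfh sort 5 of 31 were higher, among them Phlda1 (0.70) and Plk3 (0.39), and 2 lower, the chemokines Xcl1 (-2.82) and Ccl4 (-1.55). Reporter-sort Il4+ cells had 5 of 26 higher and 0 lower.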

How the data were processed

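The data were droplet gene expression and hashtag libraries of 2 sorted populations, 1 lane each. The authors deposited whole-number UMI counts per gene and barcode. The submitters' processing notes name builds mm10 and GRCm38, bcl2fastq in versions 2.18.0.12 and 2.20.0.422, and version 2.2.0 of Cell Ranger, while the header of the reporter matrix names software version 3.0.2. The annotation release is not given in the sources used here. How the submitters chose cells is also not given, and intronic reads, multimapping and strand settings are as the deposited counts hold them.

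From these counts, cells were kept at 500 genes or above and with no more than 10% of UMIs from 13 mitochondrial genes. The mouse was the hashtag with at least 10 counts and 3 times the second. T cells had a UMI of the Cd3 or T-cell receptor constant genes, fewer than 2 Cd79a and fewer than 3 myeloid UMIs, and CD8-like cells 2 or more UMIs of Cd8a and Cd8b1. No doublet caller was run beyond hashtags. These cell classes were set on full counts, so their UMI limits did not apply at equal depth. Cells were then thinned to 2000 UMIs without replacement. Splits by a gene were set on the thinned counts, except the Foxp3 split, which used full counts. Total UMIs per mouse were 3378446 to 5434703 in the Tfh sort and 12024433 to 15123654 in the reporter sort. Sums of 10 or more cells per mouse and group were tested by edgeR 4.0.16 (quasi-likelihood, TMM, filterByExpr with a minimum count of 10, R 4.3.3) with Benjamini-Hochberg adjustment over all genes at 0.05. The mouse was a block, since both groups of a comparison come from the same mouse. The replicates are the 3 mice of each sort, and shares and limits of 0 cover counting error only.

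The members, lists and comparisons were chosen with earlier results of these data known. Named in each comparison are up to 8 called members with the largest change in each direction, and always Fos, Jun, Egr1, Nr4a1, Dusp1 and Cd69; from the other lists up to 4 called genes; and for Fos, Egr1 and Nr4a1 the 5 genes with the highest correlation. The Foxp3 split did not have 10 cells in each mouse at 2000 UMIs, so full counts with depth-matched cells, chosen after seeing the data, are given for it. The fit was also run on simulated counts, which held no difference between mice and larger changes than most given here. That run therefore does not speak to the smaller changes. DESeq2 1.42.0, RLE factors, other depths, filters and cell sets, and each mouse left out were tried as alternatives. Depth matching, cell restriction and the myeloid limit were added after seeing the data. Promoter letters come from RefSeq, and Python 3.11.15 with pandas 2.3.3 and matplotlib 3.10.9 was used.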

Additional observations from a re-analysis of the deposited data

Results flagged for a closer look

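For the following genes the change had one sign in every mouse of the one sort and the opposite sign in every mouse of the other sort under the same contrast. In each pair edgeR called the reporter-sort change and did not call the Tfh-sort one. The difference between the sorts was not tested. Between B cells and CD4 T cells, Egr1 had log2 changes of -0.0178 (adjusted p = 0.903) in the Tfh sort and 0.543 in the reporter sort. Its Tfh-sort levels were 878, 843 and 816 CPM in B cells against 1015, 1003 and 932 in CD4 T cells. The small size of that fitted change thus rests on edgeR's scaling between libraries. With Cxcr5, Egr2 had 0.0997 (adjusted p = 0.82) in the Tfh sort and -0.447 in the reporter sort, and Btg1 had 0.141 (adjusted p = 0.368) in the Tfh sort and -0.444 in the reporter sort. With Il13, Egr1 had -0.327 (adjusted p = 0.302) in the Tfh sort and 0.223 in the reporter sort, and Zfp36l1 had 0.119 (adjusted p = 0.897) in the Tfh sort and -0.324 in the reporter sort. Of the reporter-sort calls, Egr1 and Zfp36l1 with Il13 were not called without mouse 1, 2 or 3, Egr2 with Cxcr5 was lost without mouse 2 (adjusted p = 0.127) or 3 (0.524), and Btg1 with Cxcr5 without mouse 3 (0.241). Strain, chemistry and sequencing run differ with the sort, so none of these pairs can be told apart from them.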

How the results depend on the processing

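Each count below is of members called where the count moved by over 1.5 times or the balance of higher and lower calls turned, and the cause was not tested. The 1-cytokine counts are for cells with only 1 cytokine of a pair. Splits are given by their gene. Without thinning Tfh-sort counts were Il4 12 (1 higher, 11 lower), Il13 15 (4 higher, 11 lower), Il21 14 (6 higher, 8 lower), Il2 17 (3 higher, 14 lower), Foxp3 10, Gata3 26, Cxcr5 7, CD8-like 11 and reporter-sort counts were Il4 19, Il13 24, Gata3 15 (4 higher, 11 lower), B-cell 23 (10 higher, 13 lower). At 1000 UMIs Tfh-sort counts were Il4 1, Il13 1 (0 higher, 1 lower), Il21 6, Il2 10, Gata3 0, CD8-like 7, 1-cytokine 0 and reporter-sort counts were Il4 0, Gata3 10, CD8-like 1. With a second random draw Tfh-sort counts were Il4 6, Il13 5, CD8-like 0, 1-cytokine 2. With 2 or more UMIs for a positive cell (3 for cell classes) Tfh-sort counts were Il4 10, Il13 9 (4 higher, 5 lower), Cxcr5 1, 1-cytokine 2 and reporter-sort counts were Il13 22, CD8-like 5. With at most 5% mitochondrial UMIs Tfh-sort counts were Il13 5, CD8-like 0, 1-cytokine 2 and reporter-sort counts were Il4 0, Il21 2, Il2 3, Cxcr5 6, 1-cytokine 5. Without cycling cells Tfh-sort counts were Il13 4, Gata3 2 and reporter-sort counts were Il4 3. With RLE size factors Tfh-sort counts were CD8-like 0. With no low-count filter Tfh-sort counts were Il4 5, Il13 10 (4 higher, 6 lower), Gata3 2, CD8-like 6, 1-cytokine 2 and reporter-sort counts were Il4 2. With no replicate block, which ignores the pairing of both groups within a mouse, Tfh-sort counts were Gata3 0, CD8-like 7, 1-cytokine 2 and reporter-sort counts were Il4 0, Il21 5, Gata3 2. With DESeq2 Tfh-sort counts were Il4 1, Il13 2, Il21 11, Il2 10, Gata3 0, CD8-like 1, 1-cytokine 0 and reporter-sort counts were Il4 1, Il21 8, Il2 8, Gata3 2, 1-cytokine 4. With the myeloid limit dropped Tfh-sort counts were CD8-like 11, 1-cytokine 2 and reporter-sort counts were Il13 22, 1-cytokine 18 (4 higher, 14 lower). With depth-matched cells Tfh-sort counts were Il4 8, Il13 2, Gata3 0, 1-cytokine 2. With cells restricted by a second gene Tfh-sort counts were Il13 0, Il2 9. Leaving out each mouse, Tfh-sort counts ranged as Il4 2 to 5, Il13 0 to 3, Il21 12 to 15, Il2 12 to 14, Gata3 0 to 1, Cxcr5 0 to 0, B-cell 22 to 25, 1-cytokine 0 to 3 and reporter-sort counts ranged as Il4 0 to 7, Il13 10 to 12, Il21 13 to 16, Il2 11 to 13, Gata3 3 to 7, Cxcr5 5 to 16, CD8-like 0 to 2, B-cell 24 to 25, 1-cytokine 6 to 9, and this was not run for the Foxp3 split and the Tfh-sort CD8-like cells, which came from 2 mice. Single genes changed sign in 5 cases: Dusp1 with Tfh-sort Il13 at depth-matched cells (0.012), and without thinning Btg2 with Tfh-sort Il21 (-0.011) and Il2 (-0.018), Cd69 with reporter-sort Il21 (-0.00299) and Rgs1 with reporter-sort Il2 (-0.015). Of the named gene results, 122 of 127 kept their side of the threshold with RLE factors, 101 of 127 without the block, 76 of 122 with DESeq2, 79 of 125 at 1000 UMIs and 64 of 86 with depth-matched cells. The Foxp3 split could not be tested at 2000 UMIs, and Ier3 rests on 17 UMIs in Tfh-sort Il13+ cells.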
